A study of Mus musculus with 59 samples.

Results

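In this comparison 6 subclones of mouse embryonic stem cells derived by nuclear transfer (NT-ESC) were taken out of 59 lines measured on Affymetrix arrays, 1 array per line. The members were taken by their labels: 3 subclones, NT-7, NT-8 and NT-9, were made from nuclei of induced pluripotent stem cells (iPSC) of blood origin, and 3 subclones, NT-4, NT-5 and NT-6, from nuclei of the Adeno-iPSC clone 2 (Adeno-2). They are called the blood family and the Adeno-2 family below, and every difference is the blood family minus the Adeno-2 family. NT-7 came from iPSC-7, whose cell of origin was a haematopoietic stem cell, and NT-8 and NT-9 came from iPSC-15, whose cell of origin was a granulocyte. Both donor lines were from mouse 1, a chimera made with ESC that carried a drug-inducible cassette for Myc, Klf4, Oct4 and Sox2, so that cassette is part of the background of the blood family. Adeno-2 was made from fetal liver cells. The other lines were 4 clones of targeted KH2 ESC and 48 iPSC clones, and they serve here only to place the levels. All lines grew in 15% serum with LIF on irradiated mouse fibroblasts and were preplated for 45 minutes to remove those feeders before RNA was taken. The age of the animals is not given in the sources used here. All 3 arrays of the Adeno-2 family share 1 donor, and the arrays of the blood family share 2. Donor line and family therefore cannot be told apart. The p-values measure the spread between subclones, which in the blood family also holds the difference between its 2 donors.

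In nuclear transfer the nucleus of a cell is placed in an egg from which the nucleus was removed, and ESC are then taken from the cloned blastocyst. ESC keep a network around the transcription factors Pou5f1 (Oct4), Sox2 and Nanog, and when this network is left they can turn to primitive endoderm, to the epiblast of the implanted embryo and its 3 germ layers, or, rarely, to trophoblast. Primitive endoderm is set up by Gata6, Gata4, Sox17 and Foxa2, and matures into visceral endoderm, which takes up and secretes nutrients and apolipoproteins, and parietal endoderm, which lays down a basement membrane of laminin and collagen IV.

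The arrays of the blood family stood apart from all other arrays before any gene was tested. NT-4, NT-5 and NT-6 correlated with each other at r from 0.997 to 0.998 over 11807 genes, whereas NT-7, NT-8 and NT-9 correlated with them at a mean r of 0.895, 0.911 and 0.946. Among themselves the 3 blood family arrays reached only 0.951 to 0.968. Their values were also less spread. The SD over 22626 probe sets was 2.35 in NT-7, 2.38 in NT-8 and 2.47 in NT-9, against 2.54 to 2.64 in the other 56 arrays. Because a lower SD pulls high values down and low values up, calls and list medians were also computed after quantile normalization, which gives all 59 arrays the same distribution. Every NT-ESC array had the defining markers of its label, with Pou5f1 at 3.78 or more, Sox2 at 3.95 or more and Nanog at 4.18 or more on a log2 scale whose array mean is near 0. Control probe sets were not analysed here, so the RNA quality of the 3 blood family arrays, and its part in every difference below, was not tested. In a bulk sample, fewer cells of a type and less RNA per cell cannot be told apart.

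The families differed at 6033 of 11807 genes (limma, Benjamini-Hochberg adjusted p under 0.05 over all genes, a threshold used throughout for the word called), or 51.1% of all genes. Of these, 3593 genes (30.4%) were higher in the blood family and 2440 (20.7%) were lower. At 6023 of the 6033 the 3 values of one family did not overlap the 3 of the other, and 1268 higher and 1402 lower calls were of 2-fold or more. After quantile normalization 4648 genes (39.4%) were called, 2858 higher (24.2%) and 1790 lower (15.2%). Both ways of scaling called 4185 genes in the same direction and 0 in opposite directions. The share of calls that were higher was 59.6% as deposited and 61.5% after quantile normalization. It was 38.2% as deposited without genes under the 40th percentile of level. The count was lower without an Adeno-2 array, at 3060 without NT-4, 3126 without NT-5 and 3469 without NT-6, and it was 5579 to 7046 without one of the blood family arrays. With the donor line as a random block it was 2276, of which 54.9% were higher, and all 2276 were among the 6033.

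The sign of the difference went with the level of the gene. Among 3713 genes with a mean level under -1.5 over the 59 arrays, 47.5% were called higher and 2.1% lower. Among the 4003 genes between -1.5 and 1.5 these shares were 32% and 18.5%, and among the 4091 genes above 1.5 they were 13.5% and 39.6%. The median difference was 0.56 in the low, 0.22 in the middle and -0.38 in the high class, and 0.21 over all genes. After quantile normalization the medians were 0.26, 0.35 and -0.16, and 0.14 over all genes. The correlation of the difference with the mean level across genes, which are not independent replicates, was -0.42 as deposited and -0.23 after quantile normalization. The counts of each list below are therefore to be read against the shares of all genes, 30.4% called higher and 20.7% lower, and against those of its level class. The lists were chosen with earlier results of these data known, so their counts are not independent support.

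**Figure D1:**
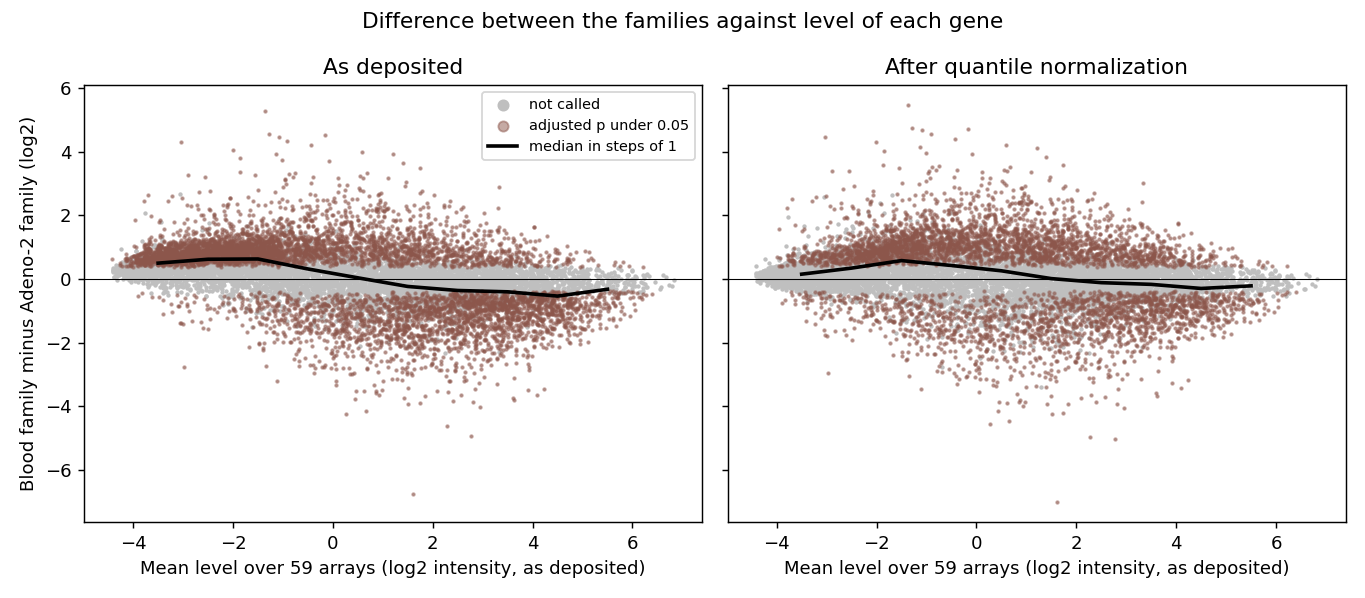
Each point is 1 of 11807 genes, with its mean level over 59 arrays on the horizontal axis (log2 intensity) and its difference between the families on the vertical axis (log2, blood minus Adeno-2), as deposited on the left and after quantile normalization on the right. Genes called by limma at an adjusted p under 0.05 are brown, and the black line, the median in steps of 1, runs from above 0 among weak genes to below 0 among strong ones in both panels, less steeply on the right.

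Regulators of primitive endoderm were higher in the blood family. Of 15 measured regulators 12 were called higher and 0 lower, against 30.4% and 20.7% of all genes, and their median difference was 1.44 against 0.21 over all genes. After quantile normalization 9 were called higher, 0 lower, and the median was 1.55, against 0.14 over all genes. Of the 15, 13 are weakly expressed genes of the low class, where 47.5% of genes were called higher and 2.1% lower. After quantile normalization those shares of the low class were 19.7% and 4.26%. In 13 of the 15 the blood family was higher without overlap, against 40.1% of all genes (a further 26.7% were lower without overlap), and in 8 all 3 blood family arrays lay above every one of the other 56 arrays, as they did for 19.7% of all genes.

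Sox17, a transcription factor of primitive and definitive endoderm, measured -3.10, -2.81 and -3.29 in NT-4, NT-5 and NT-6 and -0.60, 2.37 and 1.96 in NT-7, NT-8 and NT-9. The difference was 4.31 ± 0.73 (SE, n = 3 and 3; limma adjusted p = 0.00473). The 48 iPSC ranged from -3.79 to -2.98, so all 3 blood family arrays lay above them, NT-7 least.

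Foxa2, which opens closed chromatin in endoderm, measured -2.61, -2.73 and -2.80 in the Adeno-2 family and -0.44, 1.03 and -0.47 in NT-7, NT-8 and NT-9, a difference of 2.76 ± 0.40 (limma adjusted p = 0.00294). Gata6, which starts the primitive endoderm programme, was between -1.83 and -1.65 in the Adeno-2 family and -0.91, 0.64 and 1.03 in the blood family, a difference of 2.01 ± 0.47 (limma adjusted p = 0.0139). Gata4, which acts with Gata6, was between -2.25 and -2.03 in the Adeno-2 family and -1.002, 0.51 and -0.94 in the blood family, a difference of 1.66 ± 0.40 (limma adjusted p = 0.0153). None of these 3 genes overlapped between the families, and NT-8 was the highest array for Foxa2 and Gata4 and NT-9 for Gata6. The endocytic adaptor Dab2 was 2.16 higher, the WNT antagonist Dkk1 2.32 higher and the forkhead factor Foxq1 1.53 higher. The nodal antagonist Cer1 (1.19) and the hedgehog ligand Ihh (0.76) were called as deposited but not after quantile normalization, where their adjusted p was 0.0602 and 0.336. Sox7 had 0.55 as deposited and 0.24 with an adjusted p of 0.364 after it. The other called regulators were Cited1 (0.94) and Lhx1 (1.44). Hhex (-0.12), Hnf4a (0.63) and Bmp2 (1.07) did not pass the test. The other 3 probe sets of Hnf4a, a nuclear receptor of endoderm and liver, gave 0.66 and 3.72, both called, and 0.28, which was not. Bmp2 was at -3.66 in NT-7 against -1.62 and -1.88 in NT-8 and NT-9. With the donor line as a random block 6 regulators were called higher (Sox17, Foxa2, Foxq1, Dab2, Cited1 and Dkk1), and Gata4 and Gata6 were not among them.

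**Figure D2:**
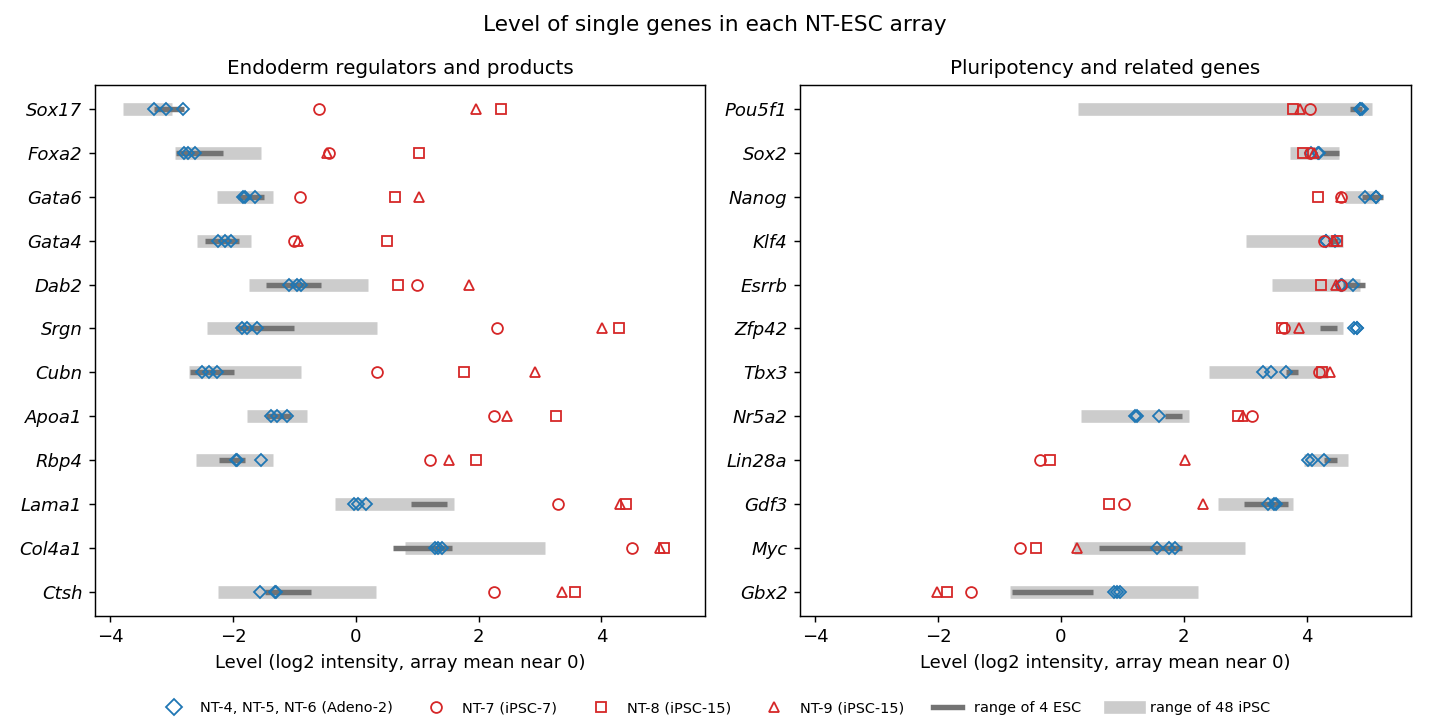
Level of 12 endoderm genes (left) and 12 pluripotency and related genes (right) in each NT-ESC array (log2 intensity); blue diamonds are NT-4, NT-5 and NT-6, red symbols are NT-7 (circle), NT-8 (square) and NT-9 (triangle), and the dark and light bars are the ranges of 4 ESC and 48 iPSC. The endoderm genes of the blood family lie to the right of the blue diamonds in every row, with Sox17 at -0.60 to 2.37 against -3.29 to -2.81, while Sox2 and Klf4 lie among the other lines and Lin28a, Gdf3, Myc and Gbx2 lie below the blue diamonds.

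Genes that mature visceral and parietal endoderm make were higher as well. Of 30 measured products 22 were called higher and 1 lower, the iron carrier Trf (-0.63), against 30.4% and 20.7% of all genes. The median difference was 1.42 as deposited and 1.48 after quantile normalization. On the latter scale 19 were called higher and 1 lower, against 24.2% and 15.2% of all genes. This list was chosen with earlier results of these data known. Its members Srgn, Ctsh, Cubn, Apoa1, Lama1 and Spink1 are among the 15 largest higher differences, so the count and median are not independent support. With the donor line as a random block 17 were called higher and 0 lower. In 17 products all 3 blood family arrays lay above the other 56, as they did for 19.7% of all genes. Of the 30, 8 are of the low class and 5 of the high class.

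Serglycin (Srgn), the core protein of secretory granules and abundant in parietal endoderm, was the gene with the largest higher difference. It measured -1.61, -1.86 and -1.77 in the Adeno-2 family and 2.29, 4.29 and 4.00 in the blood family, a difference of 5.27 ± 0.49 (limma adjusted p = 0.000881). The highest of 48 iPSC reached 0.34, below the lowest of the 3.

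Among the basement membrane genes, the laminin chain Lama1 was between -0.03 and 0.17 in the Adeno-2 family and 3.29, 4.41 and 4.30 in the blood family, a difference of 3.94 ± 0.30 (limma adjusted p = 0.000556). The collagen IV chains Col4a1 (3.48) and Col4a2 (3.04), the laminin chain Lamb1 (1.48), Nid1 (0.89) and Sparc (0.86) were called higher too. Further probe sets of Lamb1 (0.74 and 0.12) and of Nid1 (-0.04) were not called. Lamc1, which joins these chains in laminin, was not called: it measured 1.40, 2.35 and 3.45 in NT-7, NT-8 and NT-9 and 3.11 to 3.17 in the Adeno-2 family.

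Among the genes of uptake and transport, the endocytic receptor Cubn was between -2.50 and -2.27 in the Adeno-2 family and 0.35, 1.76 and 2.93 in the blood family, a difference of 4.07 ± 0.58 (limma adjusted p = 0.00288). Its partner Amn was 1.40 higher. Apolipoprotein Apoa1 measured -1.11, -1.28 and -1.38 against 2.25, 3.26 and 2.46, a difference of 3.91 ± 0.27 (limma adjusted p = 0.000427). The retinol carrier Rbp4 was between -1.95 and -1.54 in the Adeno-2 family and 1.21, 1.95 and 1.52 in the blood family, a difference of 3.37 ± 0.23 (limma adjusted p = 0.000414). The lysosomal protease Ctsh (4.45) and the trypsin inhibitor Spink1 (4.00) were among the largest differences. The thyroxine carrier Ttr (1.74), alpha-fetoprotein Afp (1.43) and the apolipoproteins Apom (2.09), Apoa4 (1.35) and Apoc2 (0.78) were called higher. A second probe set of Apom gave 0.29 and was not called. The fibrinogen chains Fga (0.94) and Fgb (1.09) were called as deposited, but their adjusted p was 0.125 and 0.0567 after quantile normalization, and Fgg was not called on either scale. The activin antagonist Fst (2.02) and the calcium-binding protein S100g (1.48) completed the higher ones. S100g too was not called after quantile normalization (limma adjusted p = 0.12). Thbd (0.10), Plat (0.25), Cldn2 (0.14), Pth1r (1.14) and Cpn1 (0.45) were not called.

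The sequence before the start of some of these genes is shown because the regulators above bind short motifs. The 250 bases before the most upstream listed start are from RefSeq, build GRCm38.p6, written 5′ to 3′ on the strand of the gene, and capitals mark a match to one of the motifs. Windows were Foxa2 at chr2:148046970-148047219, Srgn at chr10:62527446-62527695, Rbp4 at chr19:38125322-38125571, Krt8, a keratin of trophoblast and endoderm epithelium described below, at chr15:102004343-102004592, and Lin28a, a pluripotency gene that was lower, at chr4:134018817-134019066, all on the minus strand.
Foxa2: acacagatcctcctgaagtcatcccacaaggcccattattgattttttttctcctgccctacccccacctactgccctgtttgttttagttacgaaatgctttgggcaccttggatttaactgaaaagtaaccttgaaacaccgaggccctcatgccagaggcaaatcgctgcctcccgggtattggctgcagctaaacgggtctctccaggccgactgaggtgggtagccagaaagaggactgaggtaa
Srgn: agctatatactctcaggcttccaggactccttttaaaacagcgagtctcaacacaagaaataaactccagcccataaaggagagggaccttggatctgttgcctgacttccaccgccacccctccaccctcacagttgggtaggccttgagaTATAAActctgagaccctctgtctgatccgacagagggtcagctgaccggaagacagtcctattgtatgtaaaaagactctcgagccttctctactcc
Rbp4: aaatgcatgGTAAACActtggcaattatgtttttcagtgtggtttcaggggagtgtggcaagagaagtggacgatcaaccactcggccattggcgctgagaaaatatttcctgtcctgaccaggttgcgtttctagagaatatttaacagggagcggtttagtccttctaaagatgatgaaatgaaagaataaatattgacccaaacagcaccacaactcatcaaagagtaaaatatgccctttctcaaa
Krt8: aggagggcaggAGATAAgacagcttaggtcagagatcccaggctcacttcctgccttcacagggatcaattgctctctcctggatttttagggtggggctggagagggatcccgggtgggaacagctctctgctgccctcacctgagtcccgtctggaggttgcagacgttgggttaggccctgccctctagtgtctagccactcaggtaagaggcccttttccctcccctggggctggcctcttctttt
Lin28a: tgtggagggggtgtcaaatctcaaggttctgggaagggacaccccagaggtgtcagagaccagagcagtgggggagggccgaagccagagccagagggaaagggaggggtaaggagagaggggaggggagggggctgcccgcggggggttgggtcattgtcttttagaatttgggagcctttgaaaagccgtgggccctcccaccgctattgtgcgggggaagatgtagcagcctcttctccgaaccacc
The motifs searched, on both strands, were AGATAA for Gata factors, ACAAAG for Sox factors, TGTTTAC for forkhead (Fox) factors, ATGCAAAT for Pou factors and the box motif TATAAA, and no 2 of them overlap in the windows shown. Srgn has a TATAAA match 98 to 93 bases before its start, Rbp4 a Fox match on the other strand 241 to 235 bases before it, and Krt8 a Gata match 239 to 234 bases before it. Foxa2 and Lin28a hold none of the 5 in this window. The windows of Apoa1, Cubn, Osmr, Gbx2, Pou5f1 and Nanog were searched too, are not shown and hold none either. Over the 23 endoderm products with a listed promoter, 3 held the Fox motif (13%), 5 the Sox motif (21.7%), 4 TATAAA (17.4%), 0 the Gata and 0 the Pou motif, against 3.06%, 16.5%, 13%, 10.2% and 1.62% of the windows of 27025 genes. A match describes letters only.

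The means of the fibroblast and haematopoietic lists were higher in the blood family as well. Of 30 measured fibroblast and feeder genes 23 were called higher and 0 lower (20 and 0 after quantile normalization), with a median difference of 1.47. The shares of all genes were 30.4% and 20.7% as deposited and 24.2% and 15.2% after quantile normalization. The list mean was -0.14 to -0.06 in the Adeno-2 family and 0.99, 1.24 and 1.37 in NT-7, NT-8 and NT-9. The blood family lay within the range of the 48 iPSC, -0.05 to 2.35. Its donors were at 1.92 (iPSC-7) and 0.92 (iPSC-15), and the Adeno-2 family lay below its own donor at 1.52. The collagens Col1a1 (2.23), Col3a1 (2.46) and Col6a1 (2.38) were called higher. Fn1 (0.25), Timp3 (-0.47), S100a4 (-0.63) and Cd44 (-1.01) were not called, but another probe set of Cd44 was called higher (1.67) and another of Timp3 lower (-2.12). Laminin, collagen IV and Sparc can come from fibroblasts too, and the part of feeder RNA in these genes was not tested. iPSC-32, the iPSC with the highest fibroblast mean of 2.35, had a mean of -2.15 for the endoderm regulators and -0.06 for the products, and the latter was also the highest product mean of the 48 iPSC. In NT-7, NT-8 and NT-9 those means were -1.02, -0.22 and -0.44 for the regulators and 0.91, 1.38 and 1.26 for the products. All were above the highest iPSC values, -1.89 and -0.06. The part of feeder RNA in these means was not tested either.

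Of 29 measured haematopoietic genes 18 were called higher and 3 lower, with a median of 0.63, and 11 and 1 after quantile normalization, with a median of 0.58. Of the 29, 23 are of the low class, where 47.5% of genes were called higher. The list mean was -2.25 to -2.14 in the Adeno-2 family and -1.39, -1.62 and -1.75 in NT-7, NT-8 and NT-9, and their donors had -2.17 and -2.15. The defining marker Ptprc (CD45) was at -3.34, -3.91 and -4.31, with -3.92 to -3.85 in the Adeno-2 family, and was not called (0.04). The macrophage lysozyme Lyz2 had the largest difference of the list, from -2.90 to -2.66 in the Adeno-2 family and 1.13, 0.43 and -0.05 in the blood family (3.27 ± 0.29, limma adjusted p = 0.000782). Coro1a, an actin regulator that ESC also make, was 0.99 to 1.12 in the Adeno-2 family and 0.29, -1.92 and -1.19 in the blood family, lower as deposited (limma adjusted p = 0.0184) but not called after quantile normalization. Its other probe sets were called in opposite directions (-3.04 and 0.76). The part of blood cells in the result was not tested.

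**Figure D3:**
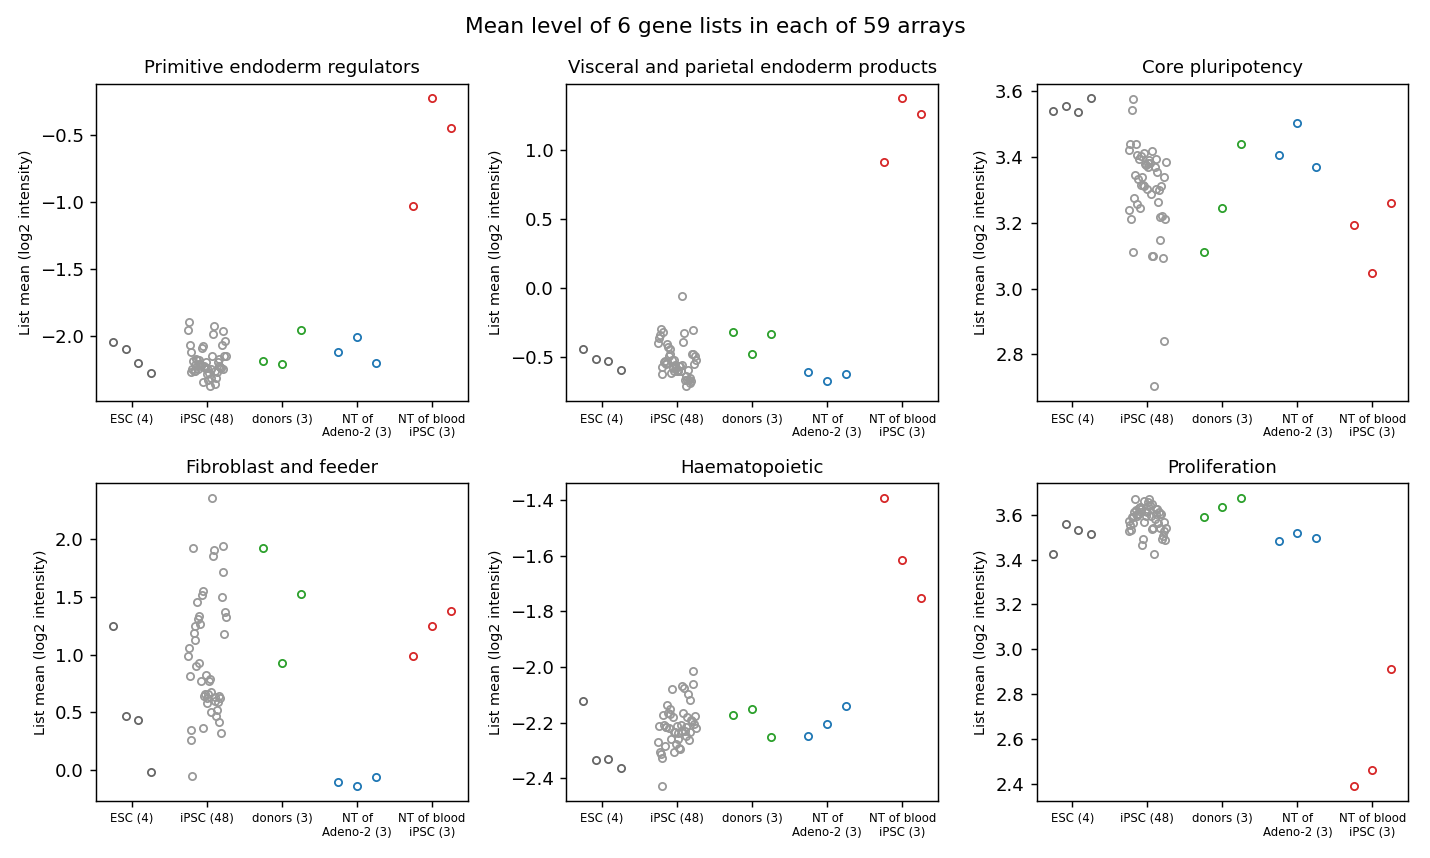
Mean level of 6 gene lists in each of 59 arrays (log2 intensity): 4 ESC, 48 iPSC, the 3 donors iPSC-7, iPSC-15 and Adeno-2 from left to right (the first and second are also among the iPSC), the 3 Adeno-2 NT-ESC and the 3 blood NT-ESC. Both endoderm lists and the haematopoietic list of the blood family lie above every other array and its proliferation mean below every other array, while its fibroblast mean lies inside the iPSC range.

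Other lineages showed smaller or mixed differences. Of 30 genes of the primitive streak and early mesoderm 13 were called higher and 3 lower, with a median of 0.54. After quantile normalization the counts were 7 and 2 and the median 0.32. Of the 30, 21 are of the low class. The heart field factors Nkx2-5 (1.13) and Hand2 (1.07) and the paraxial mesoderm factor Msgn1 (0.93) were called higher as deposited, Msgn1 with an adjusted p of 0.0567 after quantile normalization. The streak factors Mixl1 (-0.02) and Eomes (0.25) were not called, and Eomes spread from -0.93 in NT-7 to 1.48 in NT-8. Its other probe set gave 2.27 (adjusted p = 0.00295), higher without overlap. The ligand Bmp4 was lower (-1.66) as deposited, with -2.81 in NT-7 and an adjusted p of 0.0675 after quantile normalization. Tbx1 was at 0.05 in NT-7 against -2.50 in NT-8 and -3.12 in NT-9, and was not called (adjusted p = 0.0556).

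Of 18 contractile genes 10 were called higher and 5 lower as deposited, against 30.4% and 20.7% of all genes. After quantile normalization the counts were 10 and 2, against 24.2% and 15.2% of all genes. The stretch-responsive nuclear protein Ankrd1 measured -2.16, -1.95 and -2.23 in the Adeno-2 family and 1.79, 1.69 and 1.40 in the blood family, a difference of 3.73 ± 0.16 (limma adjusted p = 0.000268). Its other probe set gave 0.23 and was not called. Smooth muscle actin Acta2 was 1.62 higher and desmin (Des) 1.45 higher. The level of Acta2 was 4.82 to 4.93 in the blood family, and it was 5.29 in iPSC-7, 4.35 in iPSC-15 and 4.83 in Adeno-2, so the donors were high too. Tropomyosin Tpm1 (-1.66) and myosin light chain Myl9 (-1.97) were lower, Myl9 with an adjusted p of 0.0522 after quantile normalization.

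Neuroectoderm genes went both ways. Of 31 measured 9 were called higher and 8 lower, and the median was 0.08 (8, 7 and 0.04 after quantile normalization). The higher ones were early and weakly expressed factors such as Hes5 (1.20), Six3 (1.07) and Sox1 (0.98), which were below the array mean in all 6 arrays, except Hes5 at 0.20 in NT-7. Genes of neurons and of the neural tube were among the lower ones. The eye and brain factor Pax6 was 0.39 to 0.65 there and -2.80, -2.07 and -2.10 in the blood family (-2.81 ± 0.23, limma adjusted p = 0.000652), although its 5 probe sets gave -2.81 to 0.99. Sox11 was lower (-2.43), as were the neurofilament genes Ina (-2.69) and Nefl (-2.02) and the neuronal tubulin Tubb3 (-1.73). NT-7 was the lowest array for Ina, at -1.01 against 0.73 and 1.12 in NT-8 and NT-9.

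Of 20 trophoblast genes 5 were called higher and 3 lower on either scale, shares below those of all genes as deposited. The keratin Krt8 was 3.01 to 3.34 in the Adeno-2 family and 5.40, 5.72 and 5.04 in the blood family (2.26 ± 0.21, limma adjusted p = 0.000853), above the highest of 48 iPSC at 3.90. Krt7 was 2.10 higher, while their partners Krt18 (0.29) and Krt19 (0.33) were not called. Among the lineage factors of trophoblast, Tead4 (1.06) and Ascl2 (0.87) were called higher and Tfap2c was lower (-0.80). Gata3 (0.59) and Elf5 (0.50) were not called, though the second probe set of Elf5 was (0.60). Fgfr2, a receptor of trophoblast and primitive endoderm, was lower (-3.34) by its stronger probe set, and its other probe set gave -0.15.

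Of 33 Hox genes, which pattern the body axis, 20 were called higher and 0 lower, with a median of 0.68. After quantile normalization 10 were called higher and the median was 0.31. Of the 33, 27 are of the low class, whose median was 0.56 as deposited and 0.26 after quantile normalization. Hoxc8 differed most. It was -2.56, -2.18 and -2.55 in the Adeno-2 family and 0.45, -0.58 and -0.20 in the blood family, and the donor of NT-7, iPSC-7, had -0.49.

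Germ cell genes were mixed, with 3 called higher and 7 lower of 19. Meiotic Rec8 was 1.37 higher, and the RNA helicase Ddx4 (-2.11), the piRNA protein Piwil2 (-1.84) and the meiotic gene Tex11 (-2.96) were lower. Of 6 measured genes of the 2-cell-like state 0 were called higher and 3 lower, among them Usp17la, which was 1.49 to 2.06 in the Adeno-2 family and 1.00, -1.77 and -2.09 in the blood family. The difference was called as deposited but not after quantile normalization (adjusted p = 0.0586), and ESC were between -1.87 and -0.71, below both the Adeno-2 family and NT-7.

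Core pluripotency genes were mixed. Of 16 measured 3 were called higher and 6 lower, with a median of -0.25 (3, 5 and -0.11 after quantile normalization). Of the 16, 13 are of the high class, where 39.6% of genes were called lower. In 4 of the 16 all 3 blood family arrays lay below the other 56, as they did for 14% of all genes. When each array was only divided by its SD, the median turned to 0.17. The list mean was 3.37 to 3.50 in the Adeno-2 family and 3.19, 3.05 and 3.26 in the blood family, which lay within the 48 iPSC (2.70 to 3.58) and below the ESC (3.54 to 3.58).

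Pou5f1 was 4.87, 4.88 and 4.90 in the Adeno-2 family and 4.06, 3.78 and 3.90 in the blood family, a difference of -0.97 ± 0.14 (limma adjusted p = 0.00278) and of -0.74 (adjusted p = 0.00847) after quantile normalization. Nanog was 5.14, 5.13 and 4.95 against 4.56, 4.18 and 4.56, a difference of -0.64 ± 0.16 (limma adjusted p = 0.0181). Zfp42 (Rex1), a marker of naive ESC, was lower (-1.10), as were the orphan receptor Nr0b1 (-1.19) and the zinc finger factor Sall1 (-1.10). Sox2 (-0.11) and Klf4 (0.04) were not called, nor were Klf2 (0.01), Klf5 (-0.89), Sall4 (-0.29), Esrrb (-0.20) and Tfcp2l1 (0.10), though the second probe set of Esrrb gave 0.61 and was called. After quantile normalization Sox2 gave 0.12 and Esrrb -0.02. Stat3, which carries the LIF signal, was lower (-0.76) as deposited and missed the threshold after quantile normalization (adjusted p = 0.0666).

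The 3 core genes that were higher were Nr5a2, Tbx3 and Mybl2. Nr5a2, a nuclear receptor of ESC that is also active in liver and other endoderm, was 1.20 to 1.60 in the Adeno-2 family and 3.12, 2.88 and 2.96 in the blood family (1.64 ± 0.16, limma adjusted p = 0.00106), above the highest of 48 iPSC at 2.08. Tbx3, a factor of naive ESC that also takes part in extraembryonic endoderm, was 0.82 higher. Mybl2 was 0.49 higher by its stronger probe set, and its other probe set gave -0.99.

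Of 27 genes associated with pluripotency 13 were called lower and 3 higher, with a median of -0.56 (11, 3 and -0.31 after quantile normalization). Of the 27, 22 are of the high class, where 39.6% of genes were called lower. The RNA-binding protein Lin28a, which blocks let-7 microRNA, had the largest difference. It was 4.29, 4.02 and 4.09 in the Adeno-2 family and -0.34, -0.18 and 2.02 in the blood family, -3.63 ± 0.60 (limma adjusted p = 0.00431), and its 2 probe sets gave -3.63 and -3.70. No ESC or iPSC array was below 3.96. NT-9 kept the highest level of the 3, as it did for the TGF-beta ligand Gdf3, with 1.02, 0.78 and 2.31 against 3.37 to 3.50 (-2.08). The homeobox gene Gbx2 was lower (-2.69), and so were Myc and Mycn. Myc was 1.57 to 1.86 in the Adeno-2 family and -0.67, -0.40 and 0.25 in the blood family, and Mycn was 4.67 to 4.90 against 3.51, 2.87 and 3.47. Dppa5a (-0.12), Fbxo15 (0.15), Fgf4 (-0.30) and Trim28 (-0.30) were not called. Aire (1.21), Tcl1 (0.88) and Zfp296 (0.61) were called higher.

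Of 16 genes of the epiblast and of priming 4 were called higher and 7 lower. Otx2, a factor of the epiblast and of anterior visceral endoderm, was 2.39 to 2.49 in the Adeno-2 family and 3.26, 4.03 and 3.59 in the blood family (1.19 ± 0.21, limma adjusted p = 0.00548). The epiblast marker Fgf5 was not called (0.39). Zic2 was 0.79 to 1.03 in the Adeno-2 family and -2.81, -2.46 and -2.93 in the blood family (-3.63 ± 0.17, limma adjusted p = 0.000268), below every ESC and iPSC array. Pou3f1 (-2.20), Pim2 (-2.36) and Lef1 (-1.17) were lower as well, though the second probe set of Pou3f1 gave 0.40.

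**Figure D4:**
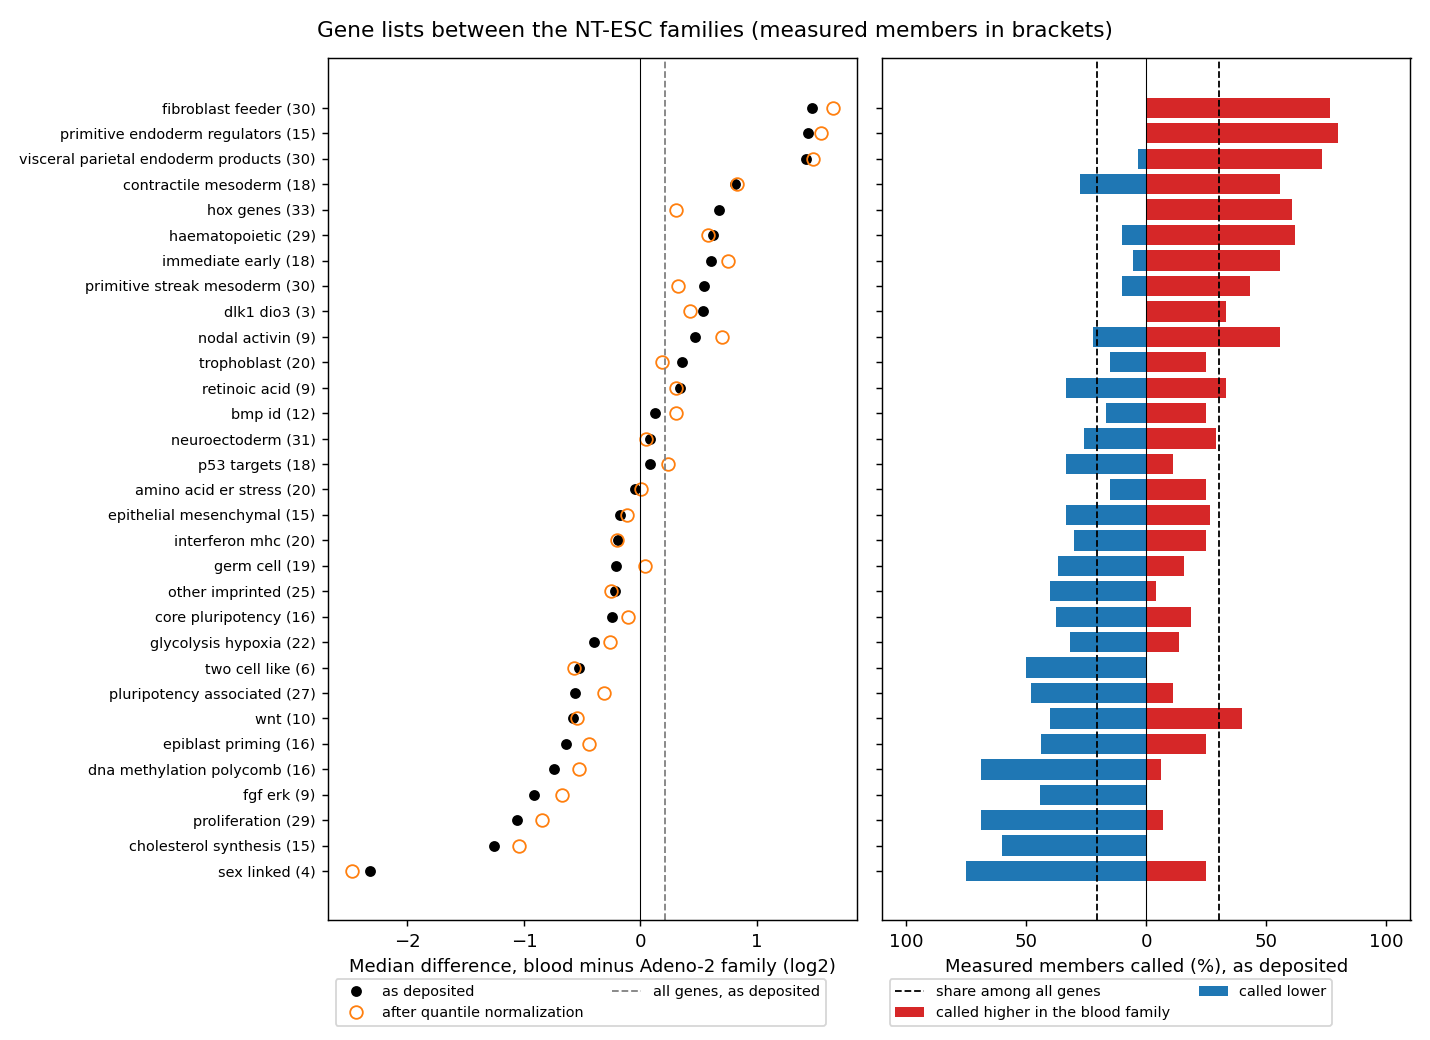
For each gene list (number of measured members in brackets) the left panel gives the median difference between the families (log2) as deposited (black) and after quantile normalization (orange), with the median of all genes dashed, and the right panel gives the percent of members called higher (red) and lower (blue) as deposited, with the shares of all genes, 30.4% and 20.7%, dashed. The fibroblast list and the endoderm regulators and products have medians of 1.42 to 1.47, and cholesterol synthesis, proliferation and the 4 sex-linked genes have the lowest medians.

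Signalling genes gave no single direction. In the nodal and activin list 5 of 9 were called higher and 2 lower (4 and 1 after quantile normalization). The activin antagonist Fst (2.02), the activin subunit Inhba (1.42) and the receptor Acvr1b (1.23) were higher, and the nodal target Lefty1 was lower (-1.92). In the WNT list 4 of 10 were higher and 4 lower on either scale. The antagonist Dkk1 was higher, whereas the feedback target Axin2 was 0.84 to 1.21 in the Adeno-2 family and -1.35, -1.78 and -0.81 in the blood family (-2.29), while its other probe set was called the other way (0.56), and Sp5 was lower (-1.44). In the FGF and ERK list 0 of 9 were higher and 4 lower on either scale, among them the feedback inhibitors Spred1 (-2.82) and Spry2 (-0.99). In the BMP list 3 of 12 were higher and 2 lower (3 and 1 after quantile normalization), with Id4 2.20 higher and Id2 lower (-0.77), although a further probe set of Id2 was called higher (1.07). In the retinoic acid list 3 of 9 were higher and 3 lower, and 0 and 2 after quantile normalization. Cyp26a1, which breaks down retinoic acid, was -1.47, 1.40 and 1.29 in the blood family and was called as deposited (2.35, adjusted p = 0.0404) but not after quantile normalization (0.0793).

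Growth and metabolism genes were mostly lower. Of 29 proliferation genes 20 were called lower and 2 higher, with a median of -1.06 (17, 2 and -0.84 after quantile normalization). With the donor line as a random block the counts were 9 and 1. The list mean was 3.48 to 3.52 in the Adeno-2 family and 2.39, 2.46 and 2.91 in the blood family, and no other array was below 3.42. Of the 29, 27 are of the high class, where 39.6% of genes were called lower. The nucleotide reductase subunit Rrm2 was 4.43 to 4.58 against 1.77, 2.26 and 3.06 (-2.13 ± 0.31, limma adjusted p = 0.00306). The helicase subunit Mcm5 (-1.85) and the mitotic kinase Aurka (-1.83) were lower. NT-9 stood nearest to the Adeno-2 family for Rrm2 and for the list.

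Of 15 genes of cholesterol synthesis 9 were called lower and 0 higher, with a median of -1.26 (8, 0 and -1.04 after quantile normalization). Of the 15, 10 are of the high class, where 39.6% of genes were called lower, against 20.7% of all genes. Farnesyl diphosphate synthase, Fdps, was 3.32 to 3.36 in the Adeno-2 family and -2.21, -0.32 and 0.47 in the blood family (-4.02 ± 0.62, limma adjusted p = 0.00355). Msmo1 (-2.19) and Sc5d (-2.51), enzymes of later steps, were lower. Of 16 genes of DNA methylation and Polycomb 11 were called lower and 1 higher (8 and 2 after quantile normalization), and 12 of the 16 are of the high class, where 39.6% of genes were called lower. The Polycomb partner Mtf2 (-1.98), the core subunit Suz12 (-1.29) and the DNA methyltransferase Dnmt3a (-1.87) were lower.

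Stress and response lists were mixed. Of 18 immediate early genes 10 were called higher and 1 lower (11 and 1 after quantile normalization), with Jun 1.28 and Egr1 0.94 higher. Of 20 genes of amino acid and ER stress 5 were higher and 3 lower (6 and 2), with Cebpb (2.16), Atf5 (1.94), Chac1 (1.76) and Ddit3 (1.44) higher. Of 20 interferon and MHC genes 5 were higher and 6 lower (5 and 5). The interferon-inducible GTPases Gbp2 (-3.73), Gbp3 (-2.71) and Irgm1 (-2.67) were lower. Of 18 p53 targets 2 were higher and 6 lower (3 and 3), with Pmaip1 lower (-1.63) and Phlda3 1.04 higher. Of 22 genes of glycolysis and hypoxia 3 were higher and 7 lower as deposited but 4 higher and 2 lower after quantile normalization, with Pdk1 lower (-1.77) and Hk1 1.74 higher. Of 15 epithelial and mesenchymal genes 4 were higher and 5 lower (4 and 2 after quantile normalization), with the tight junction gene Cldn7 lower (-1.29) and the mesenchymal factor Snai2 0.91 higher.

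The genes with the largest differences in each direction were of different kinds. Besides the endoderm products, Sox17 and Ankrd1, described above, the largest higher ones were the prostaglandin transporter Slco2a1 (4.55), the glutathione transferase Gstm3 (4.52), the oncostatin M receptor Osmr (4.35), the pepsinogen Pga5, Dram1 (3.80), Ccdc80 (3.70) and the matrix protein Ecm1 (3.65). Osmr was -2.64 to -2.16 in the Adeno-2 family and 2.49, 2.69 and 0.62 in the blood family, but its second probe set gave 0.98. Further probe sets gave 1.00 and 0.39 for Slco2a1, 0.78 for Gstm3 and 0.46 for Ccdc80. Of these, the 0.39 of Slco2a1 and the 0.46 of Ccdc80 were not called. The largest lower difference was that of Eif2s3y, a translation factor gene of the Y chromosome. It was 4.27, 4.13 and 4.10 in the Adeno-2 family and -2.40, -3.64 and -1.71 in the blood family (-6.75 ± 0.45, limma adjusted p = 0.000395). Of the donors iPSC-7 was at 2.73, iPSC-15 at -1.79 and Adeno-2 at 3.76, so NT-7 was low although its donor was not. Uty, also on the Y, was lower (-2.77), and Xist, the RNA of the inactive X, was lower too (-1.87). The second probe set of Uty (-0.32) and the other probe sets of Xist (-0.28 and -0.37) were not called. Kdm5d (0.63) was called higher only as deposited.

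Besides Fdps and Gbp2, described above, the next largest lower differences were those of Thumpd1 (-4.93), Snurf (-4.61), Gbp2b (-4.24), Gca (-4.15), the transcription factors Sp3 (-3.92) and Etv1 (-3.89), Rtn4 (-3.86), Parp12 (-3.83), D10Wsu102e (-3.80), Zfp868 (-3.79), Gng3 (-3.73) and Fam111a (-3.69). Thumpd1 was 3.70 to 3.81 in the Adeno-2 family and -2.40, -0.81 and -0.32 in the blood family, and no ESC or iPSC array was below 2.54. Snurf, read from the imprinted Snrpn locus, was 2.04 to 2.48 against -2.38 to -2.23 (-4.61 ± 0.16, limma adjusted p = 0.000212), while the 3 probe sets of Snrpn itself gave -0.51, -0.78 and 0.39, the first with an adjusted p of 0.0272 as deposited and 0.18 after quantile normalization.

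Of 25 other imprinted genes 1 was called higher and 10 lower (3 and 8 after quantile normalization). Slc22a18 was 2.11 higher, and Peg3 (-2.29), Ndn (-1.56) and Calcr (-1.53) were lower. In the Dlk1-Dio3 cluster Meg3 was -0.67 to -0.37 in the Adeno-2 family and 3.25, 2.55 and 2.05 in the blood family (3.16 ± 0.30, limma adjusted p = 0.000903), and it was 2.74 to 3.38 in ESC. Its 4 probe sets gave 0.30 to 3.16. Rian, another maternal transcript of the cluster, was not called (0.33) and was 3.45 to 3.71 in ESC, and Dlk1 was not called (0.54).

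Each family was also compared with ESC. In 1 fit of ESC and both families, 4749 genes (40.2%) were higher and 2990 (25.3%) lower in the blood family than in ESC, against 23 (0.195%) and 31 (0.263%) in the Adeno-2 family. Both comparisons share the 4 ESC arrays. At an unadjusted p under 0.05 they gave 8190 and 1071 genes. Of the 6033 genes called between the families, 5594 differed in the same direction between the blood family and ESC, and 38 differed in the opposite direction between the Adeno-2 family and ESC. The family comparison uses the same NT-ESC arrays as these comparisons, so part of this overlap is built in and is not independent support. For the endoderm regulators 13 of 15 were higher than ESC in the blood family and 0 in the Adeno-2 family, with median differences of 1.54 and 0.07, and for the products 24 of 30 and 0. Of the core pluripotency genes 10 of 16 were lower than ESC in the blood family and 0 in the Adeno-2 family. Exceptions were Meg3 (-3.51) and Rian (-4.22), lower in the Adeno-2 family than in ESC, and Eif2s3y, 4.85 higher in the Adeno-2 family than in ESC. The count for the Adeno-2 family against ESC was small and moved with 1 array, from 4 without NT-6 to 155 without NT-7, whose spread enters the shared error; it was 7 without NT-4, 11 without NT-5 and 88 without NT-8 or NT-9.

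The donor lines were compared in the same direction. The difference between the families was compared with the difference between their donors, iPSC-7 and iPSC-15 minus Adeno-2, and 755 genes (6.39%) were higher and 647 (5.48%) lower in NT-ESC than the donors gave. Adeno-2 is 1 array, so its own spread is taken as that of the other groups. The count was 328 without NT-4, 403 without NT-5, 378 without NT-6, 2717 without NT-7 and 3560 without NT-9. Of the genes called between the families 1373 were also called here in the same direction, an overlap that is not independent because both use the same NT-ESC arrays. The median of the endoderm regulators was -0.11 between the donors and 1.44 between the families, and 5 of 15 regulators and 13 of 30 products were called higher in NT-ESC than in the donors. The largest excess over the donors was that of Ctsh (5.57), Srgn (5.56), Slco2a1 (5.39), Osmr (4.85) and Cubn (4.59), and the largest deficit that of Snurf (-5.08), Zic2 (-4.69), Thumpd1 (-4.43), Etv1 (-4.36) and Csn3 (-4.32). Srgn, for example, was -1.86 in iPSC-7, -1.84 in iPSC-15 and -1.57 in Adeno-2. For Csn3 the second of 2 probe sets gave 0.65 between the families.

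The 3 subclones of the blood family did not depart equally. Counted against the mean of the Adeno-2 family, 2187 genes were at least 2-fold higher and 2017 at least 2-fold lower in NT-7, 1747 and 1769 in NT-8, and 1092 and 1082 in NT-9. Each Adeno-2 array, counted against the mean of the rest of its family, gave 0 or 1. NT-7 had the largest departure but the lowest mean of both endoderm lists. NT-9 had the smallest departure, and its endoderm means lay between those of NT-7 and NT-8.

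Probe sets of the same gene often disagreed on the size of the difference. For 4150 genes with more than 1 probe set the range between probe sets had a median of 0.79 and was over 1 in 1672 genes (40.3%), and 272 genes (6.55%) had probe sets called in opposite directions. The same genes in the Adeno-2 family minus ESC had a median range of 0.19, with 47 genes (1.13%) over 1 and 0 called in opposite directions. Only 54 genes were called in that comparison, so it leaves little room for probe sets to differ and is no baseline. In the blood family minus ESC the median range was 0.82, with 1707 genes (41.1%) over 1 and 557 (13.4%) called in opposite directions. Among the 77 genes named here with more than 1 probe set, 41 had probe sets that did not share a call and 6 had probe sets called in opposite directions. All 7 regulators with more than 1 probe set had every probe set higher, as did 9 of 11 products, against 1402 of the 4150 genes. Sox17 gave 1.39 and 4.31, Gata6 1.44 and 2.01, Gata4 0.72 and 1.66, Col4a1 3.48 and 5.03, Apoa1 2.79 and 3.91, Ttr 1.74 and 4.51 and the 5 probe sets of Afp 0.78 to 3.86. Of the 6 core pluripotency genes with more than 1 probe set 1 had every probe set higher, 0 every probe set lower and 1 probe sets called in opposite directions. Of the 13 such proliferation genes 7 had every probe set lower and 2 had opposite calls.

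**Figure D5:**
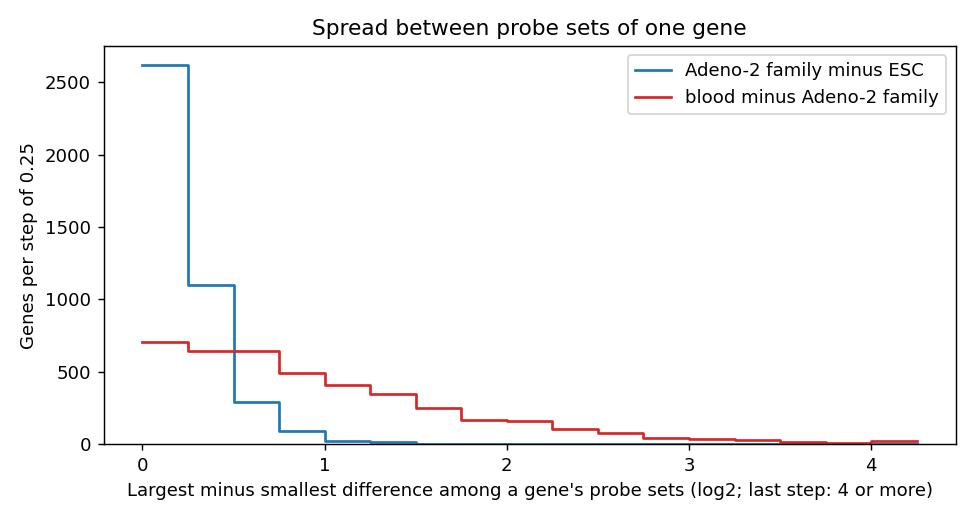
Number of genes (of 4150 with more than 1 probe set) by the range of the difference between their probe sets (log2, steps of 0.25, the last step 4 or more), for the Adeno-2 family minus ESC (blue) and the blood minus the Adeno-2 family (red). The blue line falls off before 1, where 47 genes remain, and the red line reaches far beyond it, with 1672 genes over 1. Few genes were called between the Adeno-2 family and ESC, so the blue line is not a baseline for the red one.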

How the data were processed

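The deposited values are log2 intensities of 22626 Affymetrix probe sets in 59 arrays. Biotinylated cRNA was hybridised, per the labels' protocols, and how the background was corrected is not given in those sources. The base of the logarithm and the centring of each array near 0 were inferred from the values. Of the probe sets 18003 have 1 gene in the platform annotation, 287 have several and 4336 have none. For 26 probe sets with a gene not in the RefSeq table the symbol of the platform annotation was kept. A listed symbol was matched through a synonym only where no gene now holds it. A gene was represented by the probe set with the highest mean over the 59 arrays, which left 11807 genes and no filter on low values.

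Families were compared with limma 3.58.1 (lmFit and eBayes, R 4.3.3) on the 6 NT-ESC arrays, with Benjamini-Hochberg adjustment over all genes. ESC and donor comparisons used limma fits that added those arrays. The steps were tested on simulated data. With 6000 of 11807 genes changed, 85.7% of 1-unit changes in the family comparison were recovered and 2.98% of unchanged genes were called. With 200 genes changed, these shares were 44.9% and 0.0431%. Both simulated families had the same SD for a gene and independent arrays. In the measured data the SD of the difference between 2 arrays was 0.61 to 0.75 in the blood family and 0.17 to 0.20 in the Adeno-2 family. NT-8 and NT-9 also share a donor, so the simulated shares need not hold for the measured arrays. The share of unchanged genes called in the measured arrays was not tested. Alternatives were quantile normalization, scaling to 1 SD, all 59 arrays in 1 fit, donor line as a random block or NT-8 and NT-9 averaged, a 40th percentile filter, other uses of probe sets, eBayes with trend, and leaving out each array. The block for lists and genes was added after seeing the data.

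The members and gene lists were chosen with earlier results of these data known. Named were the 15 largest non-overlapping called differences in each direction, members of the pluripotency and differentiation lists, up to 4 called members with the largest differences of each other list, fibroblast and blood genes above the array mean, the Dlk1-Dio3 and sex-linked genes, and the 5 largest departures from the donor difference in each direction. Ptprc and Snrpn were named after their values were seen. Precision is limited by the number of arrays.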

Additional observations from a re-analysis of the deposited data

Results flagged for a closer look

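The difference between the families was not the difference between their donor lines at 755 genes with a higher and 647 with a lower value in NT-ESC (limma test of the difference itself, adjusted p under 0.05). The largest were Ctsh (5.57), Srgn (5.56), Slco2a1 (5.39), Osmr (4.85) and Cubn (4.59) in one direction and Snurf (-5.08), Zic2 (-4.69), Thumpd1 (-4.43), Etv1 (-4.36) and Csn3 (-4.32) in the other. Of the 4336 probe sets without a gene name, which the report does not describe, 2111 (48.7%) differed between the families, against 48.9% of the probe sets with 1 gene.

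Among the 4 ESC arrays 1 array lay far from the other 3 by Dixon's criterion at 23 of the 191 genes named, where chance gives about 1 in 20. ESC-1 was the high one for Cebpb (0.86), Eomes (0.77), Myc (1.96), Myl9 (2.73), Nr0b1 (4.16), Pim2 (2.09), Pou3f1 (2.71), Ptprc (-3.58), Sp5 (0.54) and Xist (0.86). It was the low one for Acvr1b (0.90), Aire (1.16), Apoc2 (-1.81), Ddx4 (1.28), Esrrb (4.59), Fgf4 (5.03) and Trf (-1.34). ESC-4 was high for Apoa1 (-1.06) and Gca (1.12) and low for Ccdc80 (-1.0), Gbp2 (0.32) and Krt18 (3.29). ESC-2 was high for Sox17 (-2.79), still below the lowest blood family array at -0.60. The family comparison as deposited does not test these arrays.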

How the results depend on the processing

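The 6033 genes called between the families became 2276 with the donor line as a random block and 3605 (1377 higher and 2228 lower, 38.2% higher) without genes under the 40th percentile of level, which leaves out the weak genes. Leaving out 1 array gave 3060 (without NT-4) to 7046 (without NT-9). The fit over all 59 arrays gave 8994. For the blood family against ESC, leaving out 1 array gave 7314 to 8182. For the Adeno-2 family against ESC, the 54 genes became 872 in the fit over all 59 arrays and 4 (without NT-6) to 155 (without NT-7) with 1 array left out. For the departure from the donor difference, the 1402 genes became 5633 in the fit over all 59 arrays and 328 (without NT-4) to 3560 (without NT-9) with 1 array left out. The cause was not tested. Of the 191 named genes, 15 of the called ones were not called after quantile normalization and 40 with the donor block. Mybl2 reversed to -0.25 when its probe sets were averaged. The median of the core pluripotency list turned to 0.17 with arrays scaled to 1 SD, that of the germ cell list to 0.04 after quantile normalization and 0.01 when scaled, and that of the amino acid and ER stress list to 0.01 and 0.23. The medians of the nodal (-0.01) and p53 (-0.02) lists turned with averaged probe sets, and with 1 array left out so did those of the retinoic acid (-0.03, NT-9), epithelial (0.07, NT-8) and p53 lists (-0.04, NT-7). No paired analysis was possible because the clone numbers only name lines and the families share none.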
